A study of Spodoptera frugiperda with 3 samples.

Results

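The unigenes described here encode cytochrome P450 enzymes of family 4 and its close relatives in larvae of the fall armyworm, *Spodoptera frugiperda*, a noctuid moth and crop pest. A unigene is a non-redundant transcript of a de novo assembly. Members were picked by a rule on annotation text, which uses no measured value: the text of the best match in the NR protein database had to name a P450 of family 4 or of CYP340, CYP341, CYP366, CYP367 or CYP421. Of the 30327 unigenes that the authors' tables hold, 19 met this rule, of which 18 belonged to family 4 and 1 to CYP340, and none to the other named families. Larvae of the wild-type genotype, labelled as instar 4 and raised on artificial diet, were held at 4 °C (T4) or 40 °C (T40) for 16 h, and control larvae were held at 25 °C (T25) for a time that is not given. Each temperature is represented by 1 RNA-seq library from the whole bodies of 5 pooled larvae, so the variation between larvae at a temperature is unknown and no test was run. In whole bodies, fewer cells that express a gene and less RNA per cell cannot be told apart.

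Cytochrome P450s are heme enzymes that insert an oxygen atom into their substrates, taking electrons from NADPH-cytochrome P450 reductase and, for some of them, from cytochrome b5. Family 4 enzymes are best known in animals as hydroxylases of the far (omega) end of fatty acids. The insect subfamily CYP4G stands apart: in *Drosophila*, Cyp4g1 of the oenocytes removes the aldehyde carbon from long-chain fatty aldehydes, the last step in making the hydrocarbons that waterproof the cuticle, and Cyp4g15 is expressed in the nervous system. CYP4C1 was described from the fat body of the cockroach *Blaberus discoidalis*, CYP4V2 is a human fatty acid hydroxylase, and CYP340 is a family of moths and butterflies whose substrates are mostly unknown.

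The annotation of the members was checked against matches that the rule did not use. All 19 carried the P450 domain of Pfam. The NR text placed 9 of them in subfamily 4G and 10 elsewhere. Of the 9, 6 also had *Drosophila* Cyp4g15 as their best UniProt match, and these 6 are called CYP4G below. The other 3, named 4g1-like after a *Spodoptera litura* protein, went against that name: the best UniProt match was cockroach CYP4C1 for 2 of them, and the remaining one had no match. They are therefore kept apart under their NR name. Of the 6 unigenes named 4C1-like, 5 had CYP4C1 as their UniProt match, and c176445_g5_i1 matched *Drosophila* Cyp4d1. A further 2 were named 4V2-like, 1 was named 4d8-like and 1 was CYP340L1.

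Unigenes are not always separate genes. The 19 members had 15 distinct NR hits, 15 from *S. litura* and 4 from *S. frugiperda* by unigene, and came from 15 assembly components, which group contigs by shared sequence. In 4 components there were 2 members each. The number of reads per unit of FPKM (fragments per kilobase of transcript, scaled to the reads mapped in the library) is proportional to the length on which reads can be counted, and by this measure the shortest member, c182183_g1_i1, had 5.41% of the length of the longest, c182447_g6_i1. Short members can thus be pieces of a transcript that another member also represents, and close paralogs can share reads. None of the members could be matched to the RefSeq gene table used here, so no genome position is given for them.

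A unigene is called listed when the authors' table for a comparison holds it. These tables follow a loose limit, an unadjusted p and a fold of at least 2.35 in either direction by the ratios used here, so listed is not the stricter call with adjusted p that the study's text describes, and the direction of each listed unigene was taken from its reads. Ratios are read counts divided by the effective library size behind the authors' normalised values, and every interval is a 95% exact counting interval, which does not include variation between larvae. In T4/T25, 8 of the 19 members were listed as higher at 4 °C, which is 42.1%, against 22.1% of all 30327 unigenes, and 6 were listed as lower (31.6%), against 18.0%. In T40/T25, 0 members were listed as higher, against 31.2% of all unigenes, and 11 as lower (57.9%), against 35.0%. In T40/T4, 3 were listed as higher (15.8%), against 28.3%, and 13 as lower (68.4%), against 34.0%. Among the 8310 unigenes with an NR hit, T4/T25 listed 20.3% as higher and 20.8% as lower, T40/T25 listed 39.5% and 34.2%, and T40/T4 listed 37.4% and 28.7%. The comparisons share libraries, so their counts are not independent of each other. The median log2 ratio of the listed members, with a pseudocount of 1, was 1.81 for T4/T25 against 1.54 for all listed unigenes, -2.69 for T40/T25 against -1.49, and -4.49 for T40/T4 against -1.56.

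Reads were given in all libraries for 18 members. By scaled reads, 11 of them were highest in T4, 5 in T25 and 2 in T40, and T40 was the lowest library for 13. The order T4 above T25 above T40 was the most frequent, with 10 members. How often it occurs among all 18805 unigenes with 3 values was not counted, so these counts do not show an order particular to the family. The abundant c183347_g2_i1, which was higher in T40 than in T4, has no T25 value and is not among the 18. In all 3 tables, 4 members were listed: the CYP4G unigenes c182447_g6_i1 and c179592_g6_i1 and the 4C1-like unigenes c187600_g1_i1 and c176445_g5_i1. The first 3 of these were higher at 4 °C and lower at 40 °C than at 25 °C, while c176445_g5_i1 was lower at both temperatures. Another 14 members were listed in 2 tables and 1 in a single table. How many of all unigenes were listed in 1, 2 or 3 tables was not counted.

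Of the 6 CYP4G unigenes, 5 were listed as higher (83.3%) and 0 as lower at 4 °C than at 25 °C, against 22.1% and 18.0% of all unigenes. At 40 °C, 3 were listed as lower (50%) and 0 as higher than at 25 °C, against 35.0% and 31.2% of all unigenes. The lower share was 57.9% over the 19 members, so the fall at 40 °C was not particular to CYP4G. The most read member of the family, c182447_g6_i1, whose NR hit is *S. frugiperda* CYP4G75, had 34823 reads in T4, 1974 in T25 and 453 in T40. This gave a level of 237 FPKM in T4, 18.5 in T25 and 3.37 in T40. It was 13.5-fold higher at 4 °C than at 25 °C (interval 12.9 to 14.2) and 6.01-fold lower at 40 °C (interval 5.42 to 6.67). The hottest and the coldest libraries thus lay on opposite sides of the control for this unigene.

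Of the unigenes with CYP4G74 of *S. frugiperda* as their NR hit, c182447_g5_i2 had 19589 reads in T4, 238 in T25 and 260 in T40. Its excess in T4 over T25 was 63.2-fold (interval 55.6 to 72.1). T40 and T25 were close, with a T40/T25 ratio of 0.792 (interval 0.662 to 0.948), and the unigene was not listed in that comparison. The other CYP4G74 unigene, c179592_g6_i1, had 3139, 80 and 39 reads in T4, T25 and T40. It was 30.1-fold higher in T4 than in T25 (interval 24.1 to 38.1) and 2.83-fold lower in T40 (interval 1.91 to 4.26). It is a short piece, with 9.26% of the countable length of c182447_g6_i1.

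Among the 4g15-like unigenes of CYP4G, c179592_g3_i1 comes from the same assembly component as c179592_g6_i1 and had 10706 reads in T4, 152 in T25 and 92 in T40. The T4 value exceeded that of T25 54.1-fold (interval 46.1 to 63.9), and the T40/T25 ratio was 0.439 (interval 0.335 to 0.572) without being listed. The other 4g15-like pair shares an NR hit and stood at far lower levels. There, c182183_g2_i1 had 220, 49 and 36 reads in T4, T25 and T40, and was 3.45-fold higher in T4 than in T25 (interval 2.52 to 4.80). Its partner c182183_g1_i1 had 39 reads in T4, 13 in T25 and 2 in T40. It was not listed in T4/T25, where its ratio was 2.30 (interval 1.2 to 4.70), and its T40 value was 8.97-fold lower than that of T25 (interval 2.03 to 81.8).

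**Figure D1:**
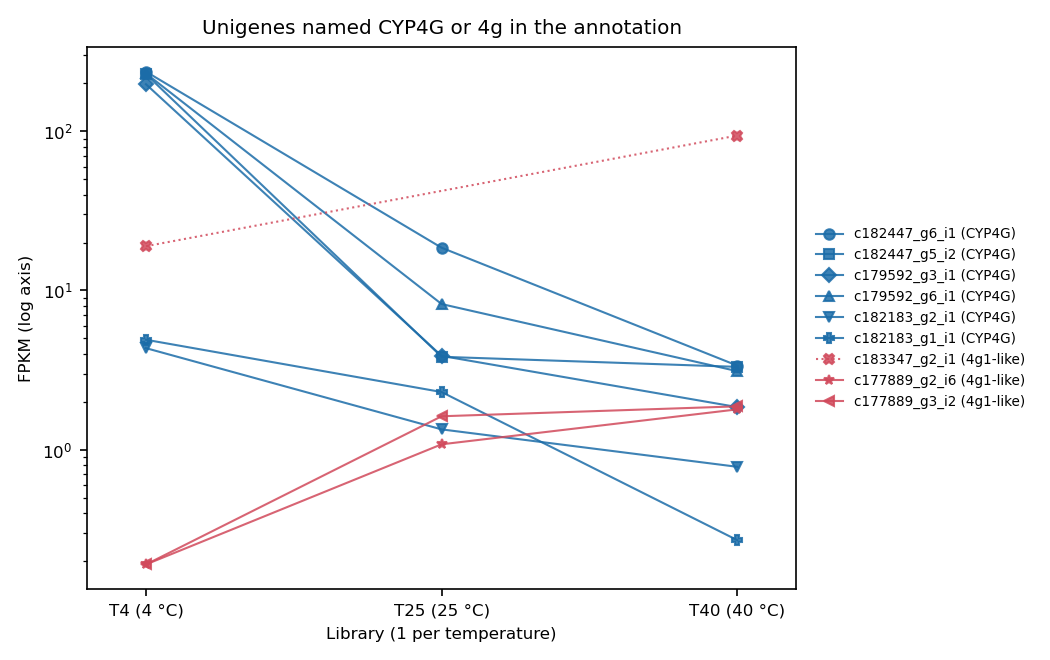
FPKM (log axis) of the 6 CYP4G unigenes (blue) and the 3 4g1-like unigenes (red) in the T4, T25 and T40 libraries, 1 point per library; a dotted line joins the values of c183347_g2_i1, which has none for T25 in the tables. The 4 abundant CYP4G unigenes lie between 197 and 237 FPKM in T4 and between 1.85 and 3.37 FPKM in T40, while the 4g1-like unigenes are higher in T40 than in T4.

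The 4 abundant CYP4G unigenes stood at nearly the same level per length in the cold library, from 197 FPKM for c179592_g3_i1 to 237 FPKM for c182447_g6_i1. At 25 °C they differed more, from 3.83 FPKM for c182447_g5_i2 to 18.5 FPKM for c182447_g6_i1, so the smaller T4/T25 ratio of c182447_g6_i1 goes with its higher level in the control. At 4 °C they ranked between 135 and 164 by FPKM among the 25639 unigenes with a T4 value in the tables. In T40, c182447_g6_i1 ranked 7022 among 27856. Summed over the 6 CYP4G unigenes, the total was 1878 RPM (reads for every 1000000 of effective library size) in T4, 89.4 in T25 and 22.8 in T40. The summed T4 level was 21.0-fold that of T25 (interval 20.2 to 21.9), and the summed T25 level was 3.92-fold that of T40 (interval 3.63 to 4.24). In T40/T4 all 6 CYP4G unigenes (100%) were listed as lower at 40 °C, against 34.0% of all unigenes. The 4 abundant ones were 79.8-fold (c182447_g5_i2, interval 70.6 to 90.5) to 123-fold lower (c179592_g3_i1, interval 100.4 to 153), and c182183_g2_i1 was 6.47-fold lower (interval 4.54 to 9.48). CYP4G was thus the subfamily with the most reads at 4 °C, and of the reads of the 18 members with 3 values c182447_g6_i1 alone held 37.8% in T4, 15.4% in T25 and 21.2% in T40.

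The 3 4g1-like unigenes ran the other way. They share 1 NR hit, and c183347_g2_i1 is the longest and by far the most abundant of them, with 2717 reads in T4 and 12313 in T40, which are 19.0 and 94.0 FPKM. It was listed in T40/T4 alone, 4.28-fold higher at 40 °C (interval 4.10 to 4.46), and its T25 value is not in the tables used here. It held 85.2% of all member reads in T40 and 2.86% in T4. The fragment c177889_g2_i6 had 7 reads in T4, 29 in T25 and 61 in T40. At 4 °C it was 5.40-fold lower than in the control (interval 2.31 to 14.6), and its T40/T25 ratio of 1.52 (interval 0.965 to 2.46) was not listed. The fragment c177889_g3_i2 had 2, 12 and 18 reads in T4, T25 and T40, with a T4 value 7.81-fold lower than that of T25 (interval 1.74 to 71.9). In T40/T4 both fragments were listed as higher at 40 °C, at 8.23-fold (interval 3.76 to 21.3) and 8.50-fold (interval 2.03 to 75.5). Both rest on few reads, and c183347_g2_i1 is the only one of the group with a well-counted ratio. The group thus had 3 of 3 listed as higher in T40/T4, against 28.3% of all unigenes. In T4/T25, 2 of 3 were listed as lower, against 18.0%.

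All 6 4C1-like unigenes (100%) were listed as lower at 40 °C than at 25 °C, against 35.0% of all unigenes, while at 4 °C they diverged. In T4/T25, 1 was listed as higher (16.7%) and 3 as lower (50%), against 22.1% and 18.0% of all unigenes. The most abundant, c187600_g1_i1, had 19035 reads in T4, 4037 in T25 and 978 in T40, or 259, 76.1 and 14.6 FPKM. It was 3.62-fold higher in T4 (interval 3.50 to 3.75) and 5.69-fold lower in T40 (interval 5.31 to 6.11) than in T25, and its 259 FPKM in T4 was the highest level of any member in any library. At 4 °C it ranked 121 by FPKM among the unigenes with a T4 value. It was the only 4C1-like unigene listed as higher in the cold.

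The next in abundance, c176445_g5_i1, stood at a similar level in the control, with 77.4 FPKM, but was almost unread at 40 °C. It had 1334 reads in T4, 3394 in T25 and 4 in T40. Its T4 value was 3.31-fold lower than that of T25 (interval 3.11 to 3.53), and its T40 value was 1170.4-fold lower (interval 457 to 4298). A second 4C1-like unigene with almost no reads at 40 °C was c183459_g1_i1, with 468 reads in T4, 663 in T25 and 2 in T40, a T40 value 457-fold below that of T25 (interval 126 to 3784). In T4/T25 its ratio of 0.542 (interval 0.481 to 0.611) was not listed. For both unigenes the 40 °C library stood apart from the other two.

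Another pair of 4C1-like unigenes was high only in the control library. Of these, c184213_g3_i9 had 60 reads in T4, 1076 in T25 and 37 in T40, a value 23.4-fold lower in T4 (interval 18.0 to 30.8) and 40.1-fold lower in T40 (interval 28.9 to 57.3) than in T25. The unigene c187661_g2_i5 had 78, 444 and 117 reads in T4, T25 and T40, and was 7.41-fold lower in T4 (interval 5.82 to 9.56) and 5.23-fold lower in T40 (interval 4.26 to 6.47). Neither was listed in T40/T4, where their ratios were 0.582 (interval 0.376 to 0.892) and 1.42 (interval 1.05 to 1.91). The last 4C1-like unigene, c177308_g3_i2, had 141 reads in T4, 62 in T25 and 8 in T40. Its T4/T25 ratio of 1.75 (interval 1.29 to 2.39) was not listed, and its T40 value was 10.7-fold lower than that of T25 (interval 5.10 to 25.9). In T40/T4 the 4 listed 4C1-like unigenes were all lower at 40 °C, from 18.7-fold for c177308_g3_i2 (interval 9.22 to 44.1) to 353-fold for c176445_g5_i1 (interval 138 to 1298). These 4 made up 66.7% of the group, against 34.0% of all unigenes listed as lower in that comparison. Summed over the 6 unigenes, the 4C1-like total was 579 RPM in T4, 345 in T25 and 29.7 in T40, so that the T25 sum was 11.6-fold that of T40 (interval 11.0 to 12.4), while the T4 sum was 1.68-fold that of T25 (interval 1.64 to 1.72). That last direction rests on c187600_g1_i1: without it, the other 5 unigenes summed to 57.0 RPM in T4 and 201.3 RPM in T25, with T25 3.53-fold above T4 (interval 3.36 to 3.71).

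**Figure D2:**
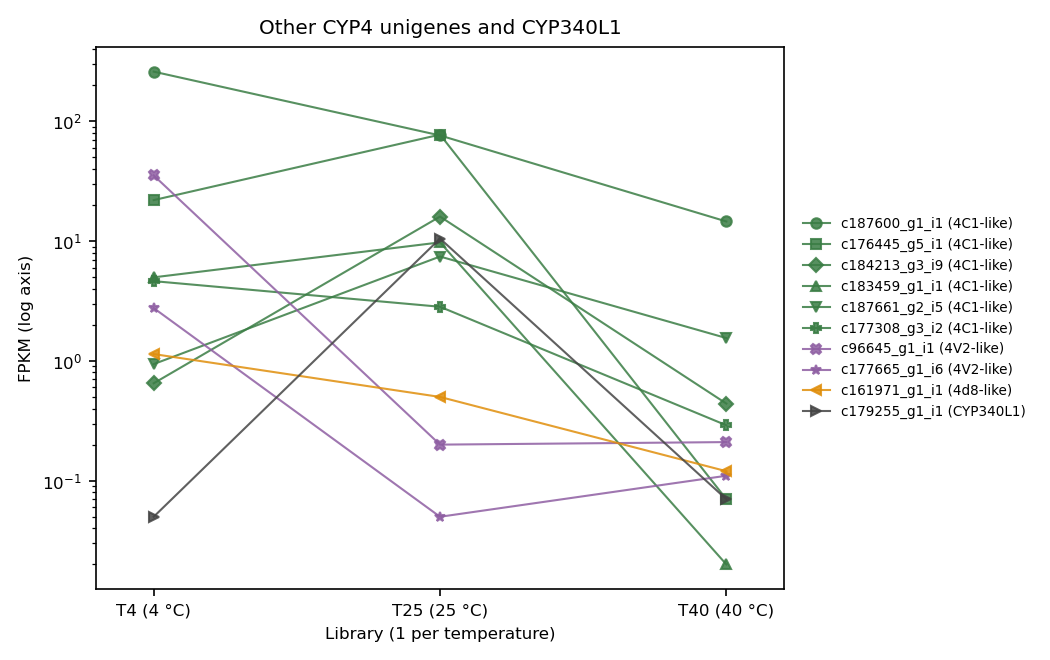
FPKM (log axis) of the 6 4C1-like unigenes (green), the 2 4V2-like unigenes (purple), the 4d8-like unigene (orange) and CYP340L1 (grey) in T4, T25 and T40, 1 point per library. The 4C1-like unigenes all end lower in T40 than in T25, the 4V2-like ones are high in T4 alone, and CYP340L1 is high in T25 alone.

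The 4V2-like unigenes had nearly all of their reads in the cold library. Both were listed as higher in T4/T25 and as lower in T40/T4, against 22.1% and 34.0% of all unigenes. Reads of c96645_g1_i1 numbered 2397 in T4, 10 in T25 and 13 in T40, and its T4 value was 184 times that of T25, with an interval of 99.9 to 384. For c177665_g1_i6 there were 162 reads in T4, 2 in T25 and 6 in T40, and its T4 value was 62.2 times that of T25, with the wide interval of 16.9 to 518 that 2 reads allow. At 25 and 40 °C the levels of c96645_g1_i1 were 0.20 and 0.21 FPKM, against 35.3 FPKM in T4. Neither 4V2-like unigene was listed in T40/T25, where the ratios were 0.942 (interval 0.382 to 2.40) and 2.17 (interval 0.389 to 22.0), so that no difference between those libraries was detectable at this depth. Against T4, the T40 value of c96645_g1_i1 was 195-fold lower (interval 114 to 367.3).

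CYP340L1 showed the opposite pattern, with reads almost only in the control. The unigene c179255_g1_i1 had 4 reads in T4, 556 in T25 and 5 in T40, or 0.05, 10.5 and 0.07 FPKM. It was 181-fold lower in T4 (interval 70.3 to 667) and 153-fold lower in T40 (interval 65.3 to 474) than in T25, and T40 and T4 were not distinguishable by counting error, with a ratio of 1.18 (interval 0.254 to 5.95). The 4d8-like unigene c161971_g1_i1 was sparse, with 41 reads in T4, 13 in T25 and 4 in T40. Its T40 value was 4.48-fold lower than that of T25 (interval 1.38 to 18.9), and its T4/T25 ratio of 2.42 (interval 1.27 to 4.93) was not listed.

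**Figure D3:**
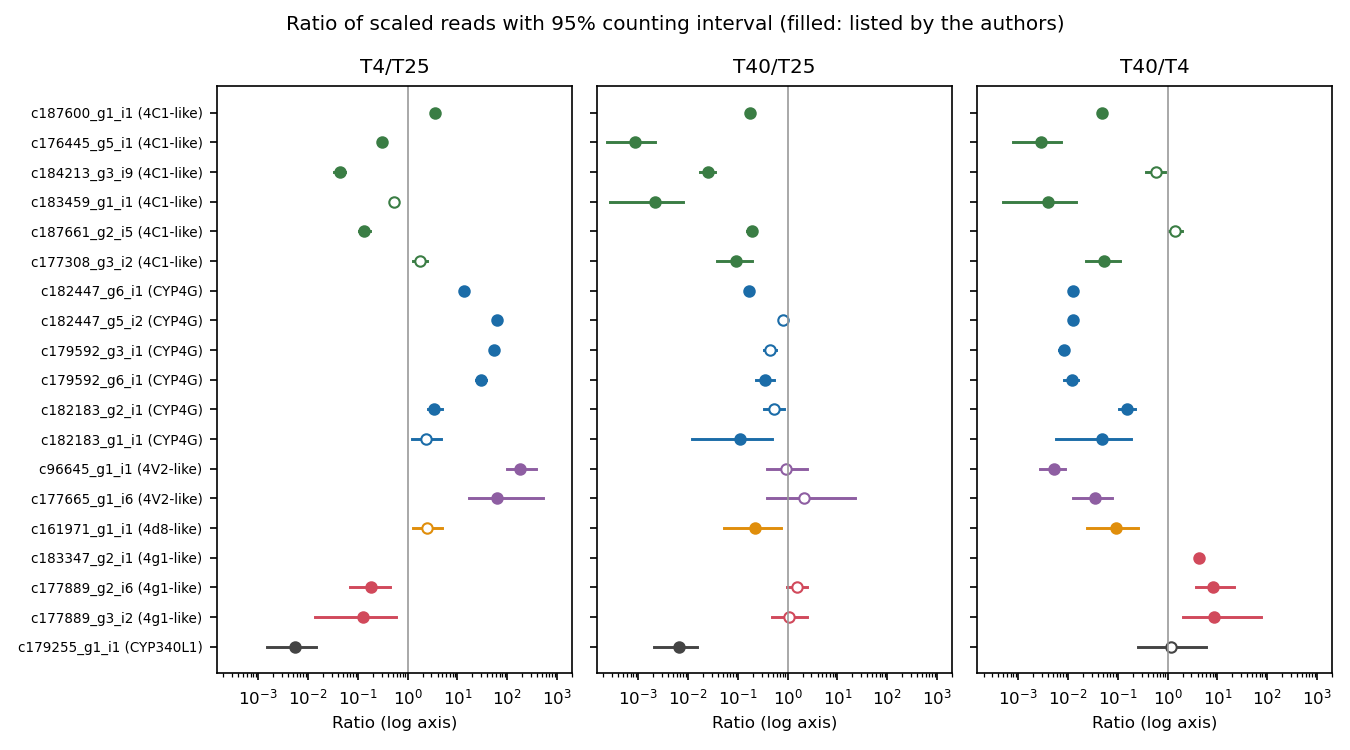
Ratio of scaled reads (log axis) in T4/T25, T40/T25 and T40/T4 for each of the 19 members, with 95% counting intervals as lines; filled points are listed in the authors' table and open points are not. CYP4G points lie right of 1 in T4/T25 and left of 1 in T40/T4, and the 4g1-like points lie on the opposite sides.

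Gene ontology terms, which the rule did not use, cut across the subfamilies. Fatty acid omega-oxidation was assigned to 5 members: both 4V2-like unigenes, the 4d8-like one and the 4C1-like unigenes c184213_g3_i9 and c187661_g2_i5. None of the 6 CYP4G unigenes carried it. Of the 5, the 4V2-like pair was listed as higher in T4/T25, the 4C1-like pair as lower, and c161971_g1_i1 was not listed. Of all unigenes, 22.1% were listed as higher and 18.0% as lower in that comparison.

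Both the family and the other P450s of the tables had a lower sum at 40 °C than at 4 °C, and the factor of the family depends on 1 unigene. The 46 P450 unigenes of other or unnamed families had 21 listed as higher (45.7%) and 8 as lower (17.4%) in T4/T25. In T40/T25, 7 of the 46 were listed as higher (15.2%) and 27 as lower (58.7%). In T40/T4, 7 were listed as higher (15.2%) and 31 as lower (67.4%). For the members these shares were 42.1% and 31.6% in T4/T25, 0% and 57.9% in T40/T25, and 15.8% and 68.4% in T40/T4. Among the 46, families 6 and 9, which hold many enzymes that oxidise plant toxins and insecticides, had 5 of 28 listed as higher and 15 as lower in T40/T25, against 0 higher and 11 lower of the 19 members. All 19 members together summed to 2603 RPM in T4 and 374 in T40, a T4 sum 6.96-fold that of T40 (interval 6.84 to 7.09), against 3073 and 2698 RPM for the 27 unigenes of families 6 and 9 with both values. The 44 other P450s with both values summed to 5312 and 2894 RPM, a T4 sum 1.84-fold that of T40 (interval 1.82 to 1.85). The unigene c183347_g2_i1 supplied 319 RPM of the member sum in T40 and has no T25 value. Without it, the 18 members with 3 values summed to 2528 RPM in T4, 457 in T25 and 55.2 in T40. The 25 unigenes of families 6 and 9 with 3 values summed to 2312, 958 and 2434. This T40 sum was above that of T25 although 15 of the 28 were listed as lower and 5 as higher in T40/T25. It thus does not describe each unigene, and how far single unigenes carry it was not counted. All 42 P450s of other or unnamed families with 3 values summed to 4551, 1847 and 2630. The difference between the families was not tested.

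Genes that work with P450s or supply the substrates of CYP4G were read from lists of annotation text. No unigene named NADPH-cytochrome P450 reductase was in the tables. Of 8 cytochrome b5 unigenes, 4 were listed as higher and 0 as lower in T4/T25, and 5 as higher and 1 as lower in T40/T25. Fatty acid synthase, which builds the acyl chain, had all 4 unigenes listed as higher at 4 °C, from 11.6-fold for c179303_g1_i3 (interval 8.89 to 15.3) to 44.1-fold for c188412_g1_i1 (interval 38.1 to 51.2). Of 14 elongases, which lengthen the chain, 8 were listed as higher and 3 as lower in T4/T25, and 1 as higher and 7 as lower in T40/T25. Fatty acyl-CoA reductases, which reduce the chain and can supply the aldehydes on which CYP4G acts, had 6 of 10 listed as higher and 0 as lower in T4/T25. In T40/T25, 2 were listed as higher and 4 as lower, and in T40/T4, 0 were higher and 9 lower. Over all unigenes, the shares listed as higher and lower were 22.1% and 18.0% in T4/T25 and 31.2% and 35.0% in T40/T25. In T40/T4 they were 28.3% and 34.0%. The elongases listed as lower in T4/T25 and the reductases listed as lower in T40/T25 were near these shares.

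Levels summed over unigenes with 3 values put these lists beside CYP4G. The reductases had 495 RPM in T4, 103 in T25 and 12.4 in T40, and the elongases 244, 66.2 and 10.7, which is the order of libraries seen for CYP4G. Fatty acid synthase had 2610 in T4, 143 in T25 and 1425 in T40, where c185592_g6_i2 was 12.0-fold above T25 (interval 11.5 to 12.4). The T40 sum rests on this unigene, with 53855 reads, while c184926_g1_i1, c188412_g1_i1 and c179303_g1_i3 had 868, 320 and 30. Of the 4, 1 was listed as higher and 1 as lower in T40/T25, and 0 as higher and 3 as lower in T40/T4. Both acyl-CoA desaturases were lower at 40 °C than at 4 °C, with c174887_g1_i1 12.9-fold lower (interval 12.7 to 13.2). They summed to 4192 RPM in T4, 1821 in T25 and 399 in T40, in the order of CYP4G. That sum rests mainly on c174887_g1_i1, with 128359, 46686 and 10534 reads in T4, T25 and T40, which was not listed in T4/T25. The other desaturase, c181781_g1_i4, had 24579, 4339 and 4868 reads and was not listed in T40/T25. The 4C1-like sum had the order of CYP4G too, so this order is not particular to CYP4G and these enzymes. Cytochrome b5 had 254, 81.5 and 566 RPM in T4, T25 and T40 and so did not follow CYP4G at 40 °C.

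**Figure D4:**
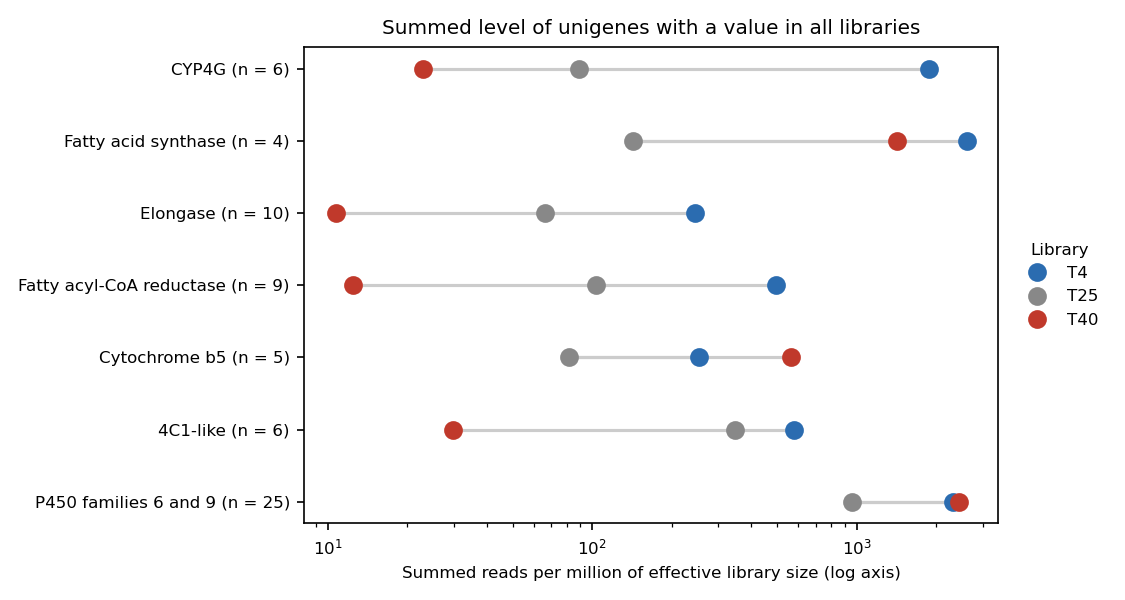
Summed reads (log axis), in RPM (scaled by effective library size), for CYP4G, 4C1-like, the lists of enzymes beside CYP4G and P450 families 6 and 9, over the unigenes with a value in T4 (blue), T25 (grey) and T40 (red); n is the number of unigenes. CYP4G, 4C1-like, the elongases and the fatty acyl-CoA reductases share the order T4 above T25 above T40.

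Annotation lists for tissues also differed between the libraries, and their summed levels are in RPM, over unigenes with 3 values. For all unigenes, the shares listed as higher and lower were 22.1% and 18.0% in T4/T25 and 31.2% and 35.0% in T40/T25. Of 4 fat body unigenes (hexamerin, storage proteins and apolipophorin), 2 were listed as higher and 0 as lower in T4/T25, and 1 as higher and 3 as lower in T40/T25. They summed to 179061 in T4, 87305.5 in T25 and 24026 in T40, the same order of libraries as CYP4G. This sum rests mainly on the storage protein c188452_g2_i4 and the hexamerin c185409_g1_i1, with 3611733 and 2490035 reads in T4. Apolipophorin c189548_g1_i1 went the other way at 40 °C, with 380781, 55061 and 505139 reads in T4, T25 and T40. Its T40 value was 6.65-fold that of T25 (interval 6.59 to 6.71). Of 15 epidermal unigenes (cuticle proteins and chitin synthase A), 6 were listed as higher and 5 as lower in T4/T25, and 3 as higher and 8 as lower in T40/T25. They summed to 3415 in T4, 2691 in T25 and 289.8 in T40, again in the order of CYP4G but with T4 and T25 close together. Both lists were narrowed after their values had been seen, to leave out a unigene named only chitin synthase and the silk protein fibrohexamerin. With that chitin synthase the epidermal unigenes reached 3587 in T4, 2835 in T25 and 915.9 in T40, so the T40 level of the wider list rests largely on 1 unigene. With fibrohexamerin the fat body sum was 179299, 87399.7 and 24026.2.

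Muscle unigenes summed to 38952 in T4, 50063 in T25 and 7513 in T40, with 8 of 31 listed as higher and 17 as lower in T40/T25. Hemocyte unigenes summed to 820 in T4, 753 in T25 and 163 in T40, with 0 of 6 higher and 5 lower in T40/T25. The 3 silk gland unigenes summed to 238 in T4, 94.9 in T25 and 0.725 in T40, and all were lower in T40/T25. The other lists did not have their lowest sum in T40. Midgut unigenes (digestive proteases, aminopeptidase N and peritrophins) summed to 5083 in T4, 4577 in T25 and 11440 in T40, with 23 of 47 higher and 14 lower in T40/T25. The vacuolar ATPase, listed for Malpighian tubules but present in many tissues, summed to 3017 in T4, 2625 in T25 and 16260 in T40, with all 14 unigenes higher in T40/T25. Neuronal unigenes summed to 3.76 in T4, 20.5 in T25 and 11.7 in T40, with 1 of 10 higher and 4 lower in T40/T25. The midgut and neuronal counts listed as lower were near the 35.0% of all unigenes. Likewise, the muscle count listed as higher was near the 31.2% of all unigenes. The part of these tissue levels in the values of the P450 unigenes was not tested, and no list covered oenocytes, the cells in which *Drosophila* Cyp4g1 acts.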

How the data were processed

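Per the labels and the methods of the study, 1 RNA-seq library was made per temperature from 5 pooled larvae. Reads were trimmed with Trimmomatic 0.38, checked with FastQC 0.11.7, assembled with Trinity, clustered into unigenes, aligned with Bowtie 1.1.2 and quantified with RSEM, and DESeq2 is named for normalisation. The labels give instar 4, while the study's text on RNA extraction names a later instar. The authors deposited 3 tables, each with only the unigenes that passed an unadjusted p limit and a fold limit in that comparison (the smallest fold by the ratios used here was 2.35), a looser choice than the adjusted p the study's text describes, holding estimated counts (RSEM expected counts, here whole numbers), FPKM, and log2 values of 1 plus normalised counts. From these log2 values and the counts, the effective library size was recovered as 36483914 for T4, 28015943 for T25 and 38643842 for T40. The table unigenes hold 24403584, 16678975 and 21560373 reads, which is part of each library. The 12 deposited columns of the authors' own fold changes and p-values and 6 columns of means were not used.

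Ratios are counts divided by effective size, with 95% intervals from the exact binomial (Clopper-Pearson) limits of one library's part of both counts. The calculation was checked on simulated independent counts, which leave out reads shared between unigenes. Intervals cover counting error only. With 1 library per temperature no test was possible, and tables that hold only such unigenes cannot show how many others did not differ. Unigenes named are all CYP4G members, those listed in all 3 tables, the highest and lowest listed with at least 50 reads in each group and comparison, and the 10 members with most reads, and the remaining members are given for completeness. The members and lists were chosen with earlier results of these data known, and 2 tissue lists (fat body, epidermis) were narrowed after their values were computed. Alternatives were TMM scaling (edgeR 4.0.16 in R 4.3.3), trimmed read totals, FPKM, a pseudocount of 10, a minimum of 50 reads and a ratio of at least 4. Further ones were 1 unigene per NR hit, 1 unigene per Trinity gene and members also by UniProt or nucleotide match. Python 3.11.15, numpy 2.4.6, scipy 1.17.1 and matplotlib 3.10.9 were used.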

Additional observations from a re-analysis of the deposited data

How the results depend on the processing

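No paired analysis was possible because each temperature has 1 library. Of 66 recomputed counts and medians over the members, 60 stayed within 1.5 times the reported count or within the counting interval of the middle members for medians, and 6 moved. No median reversed, while a count could only stay or move. Part of the 60 was fixed in advance. Counts by direction could not change under TMM scaling or trimmed read totals, and hardly under FPKM, which comes from the same reads. These counts also could not change with 1 unigene per Trinity gene, since every member has its own. Restricted to members with 50 or more reads in one of the compared libraries, the median log2 ratio of the listed members was 2.81 in T4/T25 and -6.31 in T40/T4. With a pseudocount of 10 the T40/T4 median was -3.93. With 1 unigene per NR hit, 1 member was listed as higher in T40/T4 in place of 3, since the 4g1-like unigenes share a hit. With members also taken by UniProt or nucleotide match, 1 was listed as higher in T40/T25 and 5 in T40/T4. Of 55 single ratios, no listed one changed direction under TMM scaling, trimmed read totals, FPKM or a pseudocount of 1. Of their 220 recomputed values, 22 moved beyond the counting interval, and the largest move was 1.22 times by scaling or FPKM and 1.498 times by pseudocount, the latter for c183459_g1_i1 in T40/T25. TMM scaling shifted every log2 ratio by -0.04 for T4/T25, 0.19 for T40/T25 and 0.23 for T40/T4, and trimmed read totals by -0.13, 0.16 and 0.28. Listed unigenes differ by at least 2.35-fold, so shifts of this size could not turn the direction of any of them. The largest move of a member by scaling or FPKM, 1.22 times, was below that fold as well. Unigenes with under 50 reads in every library, of which there were 3 among the members, are limited by depth.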

Other observations

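Another 4 unigenes were outside the naming rule because their NR text gives no family 4 name, although their UniProt or nucleotide match does, and they are given as values only. The unigene c185668_g3_i1, the one of the 4 with most reads in T4 and T40, has CYP4M14v1 of *S. litura* as its nucleotide match and had 1269 reads in T4, 4070 in T25 and 11810 in T40. It was 4.18-fold lower in T4 than in T25 (interval 3.92 to 4.45), and its T40/T25 ratio of 2.10 (interval 2.03 to 2.18) was not listed. The unigene c188889_g6_i1 was high in the control library alone, with 20, 8056 and 79 reads in T4, T25 and T40. This is the pattern of CYP340L1, at a far higher level, since c188889_g6_i1 stood at 115.6 FPKM in T25. Its T4 value was 525-fold lower (interval 339 to 859) and its T40 value 141-fold lower (interval 113 to 178) than that of T25. The unigene c185488_g2_i1 had 501, 381 and 100 reads and was 5.26-fold lower in T40 than in T25 (interval 4.21 to 6.62). The sparse c178599_g3_i2 had 53, 8 and 46 reads and was higher than in T25 in both T4, at 5.09-fold (interval 2.40 to 12.4), and T40, at 4.17-fold (interval 1.95 to 10.2).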
